A study of Mus musculus with 9 samples.

Results

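The genes described here encode the enzymes that write, copy and oxidize 5-methylcytosine in DNA. They are the DNA methyltransferases Dnmt1, Dnmt3a and Dnmt3b, the hemimethylated DNA binding protein Uhrf1, and the dioxygenases Tet1, Tet2 and Tet3. The 7 rows with these symbols were taken from the 24421 rows of the deposited gene count table. They were chosen by measured values of these libraries, since Tet2 and Tet3 stood among the firmest rises in counts after BAL101553, so the difference between BAL101553 and control is given for all 7 as a description, with no p-value and nothing drawn from which of them were called. RNA came from brains of C57BL/6 mice implanted with SB28 glioma cells, which carry GFP and luciferase. The study's methods describe young adult mice, dissociated brains and a sort for CD45- CD11b- GFP+ tumor cells, whereas the labels of the tumor libraries give whole tissue. The methods describe fewer samples in each group than are analysed here, under another deposit, so it is not certain that each detail holds for these libraries. By the labels and methods, the 3 control libraries came from mice given vehicle, and the 3 BAL101553 libraries from mice given BAL101553 by oral gavage, a prodrug of the spindle assembly checkpoint activator BAL27862. In the methods, treated mice were killed on a later day than controls, at matched tumor volume, so drug and time since implantation cannot be told apart. A further 3 libraries are labelled astrocytes and carry the BAL101553 treatment label too; how their cells were isolated is not given in the sources used here.

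DNA methylation in mammals sits mainly on the cytosine of CpG dinucleotides. DNMT3A and DNMT3B place it on unmethylated DNA, and DNMT1, guided to hemimethylated CpGs by UHRF1 behind the replication fork, copies it to the daughter strand, so DNMT1 and UHRF1 are most abundant in dividing cells. TET enzymes use oxygen, iron and 2-oxoglutarate to oxidize 5-methylcytosine to 5-hydroxymethylcytosine and beyond, which is lost by dilution at replication or by base excision repair. 5-Hydroxymethylcytosine is high in differentiated brain cells and low in most gliomas, and DNMT3A is the main de novo enzyme of the postnatal brain.

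The tumor libraries had few reads of Slc1a2, Mbp, Ptprc, Itgam and Snap25, and the libraries labelled astrocytes held RNA of several brain cell types. Slc1a2, the astrocyte glutamate transporter, lay between 4871 and 6102 CPM (counts scaled to a common library size by TMM over all 9 libraries) in the astrocyte libraries and at 1.59 or lower in the tumor libraries. Mbp, a myelin gene of oligodendrocytes, lay between 2835 and 3746 CPM in the astrocyte libraries, and Itgam, which encodes CD11b, between 26.8 and 76.5 CPM. Ptprc, which encodes CD45, was 8.26 to 22.2 CPM there and at most 0.333 CPM in the tumor libraries, and Snap25 of neurons was 4.86 to 5.17 CPM. The 8 astrocyte markers summed to 14231 to 17397 CPM, the 6 oligodendrocyte markers to 10498 to 13039 CPM and the 8 microglial and macrophage markers to 437 to 945 CPM. The same lists summed to 672 to 966, 15.1 to 20.5 and 2.06 to 4.51 CPM in the tumor libraries, where the astrocyte sum was mostly the gap junction gene Gja1 (902 ± 25.9 CPM in control, SD, n = 3). Of the 6 endothelial markers, 4 were called higher and 1 lower in the astrocyte libraries than after BAL101553, and Cldn5 was at 62.7 ± 2.20 CPM in astrocytes and 0.802 ± 0.0690 CPM after BAL101553 (SD, n = 3). Their sum nevertheless was 512 to 865 CPM in the tumor libraries and 186 to 216 CPM in the astrocyte libraries, since Cdh5 was at 756 ± 62.9 CPM in control and 20.5 ± 3.11 CPM in astrocytes. Neuronal markers summed to 22.4 to 46.0 CPM in the tumor and 25.1 to 28.2 CPM in the astrocyte libraries. The comparisons with the astrocyte libraries therefore set a mixture of brain cells, rich in astrocyte and oligodendrocyte RNA, against SB28 tumor cells, and the part of each cell type in a member's level was not tested. In bulk RNA, fewer cells of a type and less RNA per cell cannot be told apart. Each library held between 22919523 and 34013875 counts, and libraries of a group differed beyond sampling noise.

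The members lie on 7 chromosomes of mouse build GRCm38 (mm10). Tet1 spans chr10:62804570-62908996, Tet2 chr3:133463679-133545139, Tet3 chr6:83362373-83459084 and Dnmt1 chr9:20907209-20959888, all on the minus strand. Dnmt3a spans chr12:3806007-3914443, Dnmt3b chr2:153649450-153687730 and Uhrf1 chr17:56303321-56323486, all on the plus strand. Exons of Tet2 share 43 bases with the antisense gene Gm42567 and those of Dnmt3a share 133 bases with Dnmt3aos, which is 0.255% and 0.799% of their exon sequence. Whether the counts used strand is not given in the sources used here, so reads in these short stretches cannot be assigned.

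The promoters are shown for Tet2 and Tet3, whose transcripts were both higher after BAL101553, and for Uhrf1 and Dnmt1, which did not follow them. For Uhrf1 and Dnmt1 the start shown is the one with a match to the E2F motif, and their other starts held none. Only part of the Dnmt1 window is shown, since the rest lies in annotated Dnmt1 exons. The sequences are from RefSeq (build GRCm38.p6), 5′ to 3′ on the gene's strand. Those of Tet2, Tet3 and Uhrf1 end at the base before a transcription start, and the 30 bases of Dnmt1 lie around the match inside such a window; capitals mark a match to the E2F motif, searched as TTTCCCGC, TTTCGCGC, TTTGCCGC and TTTGGCGC on both strands.
Tet2, chr3:133544391-133544640, minus strand: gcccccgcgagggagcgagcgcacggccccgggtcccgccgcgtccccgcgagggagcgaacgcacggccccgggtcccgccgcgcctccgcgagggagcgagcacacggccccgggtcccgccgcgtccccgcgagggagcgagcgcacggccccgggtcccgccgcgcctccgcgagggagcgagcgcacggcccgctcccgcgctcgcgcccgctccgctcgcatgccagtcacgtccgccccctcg
Tet3, chr6:83441679-83441928, minus strand: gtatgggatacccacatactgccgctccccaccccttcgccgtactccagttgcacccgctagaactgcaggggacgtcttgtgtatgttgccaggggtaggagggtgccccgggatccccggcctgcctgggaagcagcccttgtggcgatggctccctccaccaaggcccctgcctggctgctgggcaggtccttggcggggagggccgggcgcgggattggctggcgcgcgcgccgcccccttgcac
Uhrf1, chr17:56304063-56304312, plus strand: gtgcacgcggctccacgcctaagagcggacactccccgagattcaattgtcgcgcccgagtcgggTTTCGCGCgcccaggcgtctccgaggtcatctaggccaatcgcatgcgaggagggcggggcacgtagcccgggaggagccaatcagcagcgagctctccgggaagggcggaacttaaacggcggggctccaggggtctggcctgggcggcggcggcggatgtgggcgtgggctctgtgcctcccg
Dnmt1, 30 bases, chr9:20952824-20952853, minus strand: ggtttccgcgcGCGCGAAAaagccggggtc

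E2F factors act on many genes of S phase. Of the 12 RefSeq starts of the 7 genes, 2 held an E2F match in the 250 bases before the start, 1 of Uhrf1 and 1 of Dnmt1. Of 32851 mouse promoters of the same length, 1.86% held one. The starts of Tet1, Tet2, Tet3, Dnmt3a and Dnmt3b held none of these letters in this window. Tet1, Tet2 and Tet3 have 1 RefSeq start each, which lies inside the gene span given above. The sequence before the outer 5′ end of these spans was not searched. The Tet2 promoter held 51 CpGs and was 83.6% G and C, and 99.9% of the promoters held fewer CpGs. The Tet3 promoter at this start held 17 CpGs and this Uhrf1 promoter 30, against a median of 6 over all promoters. The Tet3 window overlaps the first exon of the noncoding gene B230319C09Rik on the other strand. A match of letters is a description and not a mapped binding site. The part of E2F factors in the levels of these genes was not tested.

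Tet2 and Tet3, the TET enzymes with most reads in the tumor cells, were higher after BAL101553. Tet2 was at 10.99, 9.71 and 9.42 CPM in the 3 control libraries, 27.8, 31.6 and 24.5 CPM in the 3 BAL101553 libraries and 45.3, 41.7 and 41.2 CPM in the 3 astrocyte libraries. The 3 groups did not overlap, with control lowest and astrocytes highest. Between 226 and 261 reads of Tet2 were counted in each control library and between 809 and 842 in each BAL101553 library. The fitted log2 fold change of BAL101553 against control was 1.48 (SE 0.14), a 2.80-fold difference, with group means of 27.97 ± 3.60 and 10.04 ± 0.834 CPM (SD, n = 3). By p-value Tet2 stood 10th and Tet3 11th among the 6505 genes with a positive fold change, which is what the choice of these genes rested on.

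Tet3 was at 46.5, 48.2 and 50.2 CPM in control, 84.1, 85.4 and 86.0 CPM after BAL101553 and 67.4, 71.2 and 56.6 CPM in astrocytes. Its groups did not overlap either, but here BAL101553 was highest and the astrocyte libraries lay between. The BAL101553 libraries were close together for Tet3 (85.2 ± 0.997 CPM, SD, n = 3), and the control mean was 48.3 ± 1.87 CPM. The log2 fold change was 0.83 (SE 0.080), or 1.77-fold.

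Tet1, the TET enzyme best known from embryonic stem cells, was near the bottom of the measured range in the tumor cells. It had 36, 30 and 27 reads in control and 84, 78 and 49 reads after BAL101553, or 1.61, 1.12 and 1.13 CPM and 2.84, 3.05 and 1.42 CPM. BAL101553 library 3 fell within the control range, so the groups overlapped. The log2 fold change was 0.93 with an SE of 0.36.

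**Figure D1:**
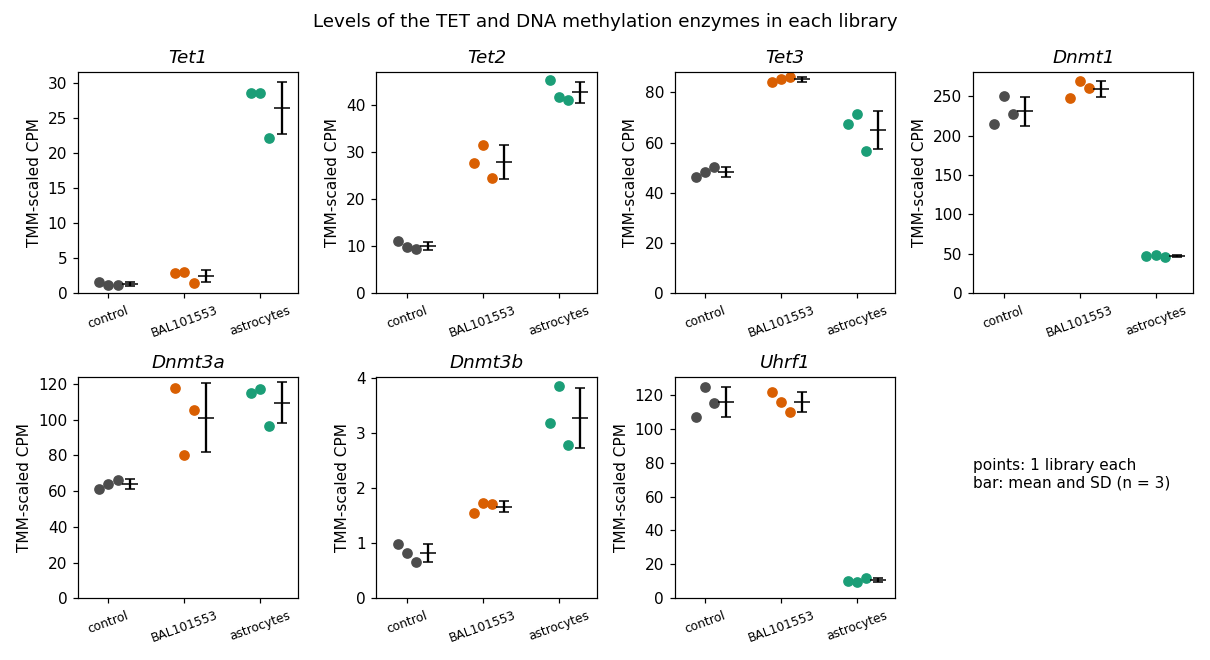
Each panel plots the level of 1 gene in TMM-scaled CPM (linear axis from 0) in the control, BAL101553 and astrocyte libraries, with 1 point a library and the bar for the mean and SD (n = 3). Tet2 steps up from control to BAL101553 to astrocytes, Tet3 is highest after BAL101553, and Dnmt1 and Uhrf1 are far lower in astrocytes than in either tumor group.

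Dnmt3a, the main de novo methyltransferase of the brain, was higher after BAL101553, with more spread than Tet3. It was at 61.0, 63.9 and 66.5 CPM in control and 118, 80.1 and 105 CPM after BAL101553, where library 2 was lowest but still above every control library. The log2 fold change was 0.67 (SE 0.14), or 1.59-fold. The astrocyte libraries, at 115, 117 and 96.5 CPM, lay within the range of the BAL101553 libraries.

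Dnmt3b, the de novo enzyme most active in early embryos, was scarce in all libraries. It had 22, 22 and 16 reads in control, 46, 44 and 59 reads after BAL101553 and 101, 109 and 72 reads in astrocytes. In CPM these were 0.983, 0.819 and 0.667 in control, 1.55, 1.72 and 1.71 after BAL101553 and 3.19, 3.85 and 2.77 in astrocytes. The groups did not overlap. The log2 fold change of BAL101553 against control was 1.02 (SE 0.28), or 2.03-fold.

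Dnmt1 and Uhrf1, the maintenance pair, were abundant in the tumor cells and overlapped between control and BAL101553. Dnmt1 was at 214, 251 and 227 CPM in control, 248, 269 and 260 CPM after BAL101553 and 47.6, 48.4 and 45.7 CPM in astrocytes. Uhrf1 was at 107, 125 and 115 CPM in control, 122, 116 and 110 CPM after BAL101553 and 10.4, 9.72 and 12.1 CPM in astrocytes. The log2 fold change of BAL101553 against control was 0.18 (SE 0.093) for Dnmt1 and 0.01 (SE 0.092) for Uhrf1. Both were several-fold lower in every astrocyte library than in any tumor library.

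Across many genes, 1860 of 12633 tested genes, or 14.7%, were called between BAL101553 and control at an adjusted p under 0.05 by edgeR's quasi-likelihood test, 8.64% higher and 6.09% lower. Of the 7 members 4 were called, all higher: Tet2, Tet3, Dnmt3a and Dnmt3b. This comparison chose the members, so the count is a description and is no support for a change in them.

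Compared per kilobase of merged exons, so that genes of different length can be set side by side, the maintenance genes led in the tumor cells. In control, Dnmt1 was at 31.3 ± 2.51 CPM per kb and Uhrf1 at 27.1 ± 2.06 CPM per kb (SD, n = 3), and their ranges overlapped slightly. Dnmt3a followed at 3.83 ± 0.167 CPM per kb, then Tet3 at 2.89 ± 0.112, Tet2 at 0.595 ± 0.0495, Dnmt3b at 0.161 ± 0.0309 and Tet1 at 0.0830 ± 0.0182 CPM per kb, with no overlap between neighbors. After BAL101553 the order was the same, with Dnmt1 at 35.1 ± 1.44 and Uhrf1 at 27.2 ± 1.41 CPM per kb, now apart. Dnmt3a (6.08 ± 1.16 CPM per kb) and Tet3 (5.10 ± 0.0597 CPM per kb) then overlapped, and Tet2 (1.66 ± 0.213), Dnmt3b (0.326 ± 0.0186) and Tet1 (0.158 ± 0.0572) stayed in order.

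In the astrocyte libraries the order was another. Dnmt3a (6.58 ± 0.683 CPM per kb) and Dnmt1 (6.40 ± 0.188 CPM per kb) overlapped at the top, followed by Tet3 at 3.90 ± 0.454 CPM per kb. Tet2 (2.53 ± 0.133) and Uhrf1 (2.52 ± 0.294 CPM per kb) overlapped, and Tet1 (1.70 ± 0.241) and Dnmt3b (0.641 ± 0.107 CPM per kb) came last. Merged exons are long where a gene has alternative ends, as for Tet2 with 16870 bases against 9179 in its longest transcript. By the longest transcript, chosen after seeing the data, the astrocyte levels of Dnmt3a (9.96 to 12.1) and Dnmt1 (7.78 to 8.24 CPM per kb) did not overlap, nor did those of Tet2 (4.49 to 4.94) and Uhrf1 (2.71 to 3.39 CPM per kb). The overlaps in the tumor cells ended too, with Dnmt1 at 36.5 to 42.8 and Uhrf1 at 29.9 to 34.8 CPM per kb in control, and Dnmt3a at 8.27 to 12.2 and Tet3 at 7.71 to 7.89 CPM per kb after BAL101553.

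The summed level of the 3 TET genes per kilobase was 3.57 ± 0.0588 CPM in control, 6.92 ± 0.251 CPM after BAL101553 and 8.13 ± 0.759 CPM in astrocytes (SD, n = 3). By the longest transcript the TET sums were 5.61 ± 0.0845, 11.03 ± 0.427 and 12.5 ± 1.08 CPM per kb. By merged exons that of the 3 methyltransferases was 35.3 ± 2.57, 41.5 ± 0.480 and 13.6 ± 0.964 CPM. The ratio of methyltransferase to TET transcript was 9.31, 10.8 and 9.59 in the control libraries, 5.97, 5.79 and 6.27 in the BAL101553 libraries and 1.63, 1.67 and 1.73 in the astrocyte libraries. The 3 groups did not overlap in this ratio, which does not depend on how libraries are scaled. Tet2 and Tet3 make up most of the TET sum and were chosen for rising after BAL101553. The higher TET sum and lower ratio after BAL101553 therefore follow in part from that choice and are a description. The ratio is of RNA, and neither the enzymes nor DNA methylation were measured in these files.

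Tet3 made up most TET transcript in the tumor cells. Its share per length was 81.0% ± 2.08 in control, 73.8% ± 2.94 after BAL101553 and 47.8% ± 1.63 in astrocytes (SD, n = 3). The share of Tet2 was 16.7% ± 1.57, 23.9% ± 2.22 and 31.3% ± 2.43, with no overlap between the groups. Since Tet2 and Tet3 were chosen on their tumor values, the step in their shares between control and BAL101553 is a description. Tet1 held 2.33% ± 0.530 and 2.26% ± 0.770 in the tumor groups and 20.9% ± 1.07 in astrocytes. Among the methyltransferases, Dnmt1 held 88.6% ± 0.727 in control, 84.6% ± 2.86 after BAL101553 and 47.1% ± 2.03 in astrocytes, where Dnmt3a held 48.2% ± 1.71.

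**Figure D2:**
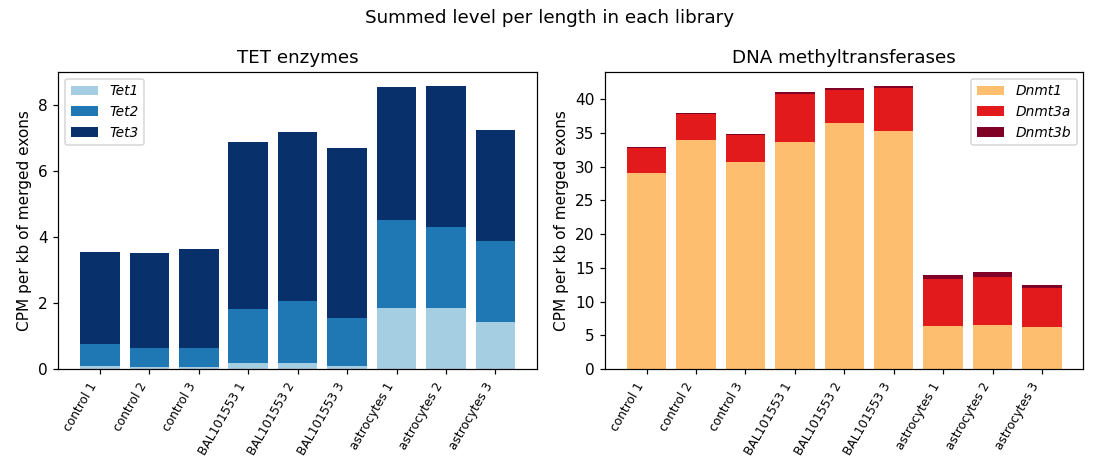
Stacked bars, 1 for each library, give the level per kilobase of merged exons (CPM per kb) of Tet1, Tet2 and Tet3 on the left and of Dnmt1, Dnmt3a and Dnmt3b on the right. The TET sum lies between 3.53 and 3.64 in control and between 6.69 and 7.19 after BAL101553, and in astrocytes Dnmt3a takes about as much of the methyltransferase sum as Dnmt1.

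The astrocyte libraries were compared with the BAL101553 libraries, which share the treatment label, and with the control libraries. Both sets of tumor libraries also served the comparison that chose the members, and Tet2 and Tet3 were picked for being high in the one and low in the other, so their values here are given without a p. Almost all genes differed: 85.1% of 15314 tested genes were called against BAL101553, 46.3% higher and 38.9% lower, and 88.3% of 15207 against control, 48.8% higher and 39.5% lower. Of the members, 6 of 7 were called against BAL101553, 3 higher and 3 lower, and 7 of 7 against control, 5 higher and 2 lower, which is near this background; these counts include Tet2 and Tet3.

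Dnmt1 and Uhrf1 were lower in the astrocyte libraries in both comparisons. Uhrf1 had a log2 fold change of -3.46 (SE 0.11) against BAL101553, or 11.04-fold lower, with an adjusted p of 5.76e-08 by edgeR's quasi-likelihood test. Against control it was -3.47 (SE 0.11), with an edgeR adjusted p of 1.65e-08. Dnmt1 was 5.62-fold lower than in BAL101553 (log2 fold change -2.49, SE 0.079, edgeR adjusted p = 5.93e-08) and 5.03-fold lower than in control (-2.33, SE 0.085, edgeR adjusted p = 3.30e-08). The ratio of Uhrf1 to Dnmt1 reads was 0.501 ± 0.00551 in control, 0.447 ± 0.0378 after BAL101553 and 0.228 ± 0.0336 in astrocytes (SD, n = 3).

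Tet1 and Dnmt3b were higher in the astrocyte libraries in both comparisons. Tet1, at 28.5, 28.5 and 22.0 CPM there, was 10.7-fold higher than in BAL101553 (log2 fold change 3.41, SE 0.28, edgeR adjusted p = 8.31e-06) and higher than in control by 4.32 on the log2 scale (SE 0.20, edgeR adjusted p = 1.11e-07). Dnmt3b differed by 0.94 (SE 0.22, edgeR adjusted p = 0.00418) and 1.95 (SE 0.25, edgeR adjusted p = 8.32e-05). For Tet2 the log2 fold change was 0.58 (SE 0.11) against BAL101553 and 2.05 (SE 0.10) against control, as a description.

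Tet3 and Dnmt3a did not differ in the same way in both comparisons. Tet3 had a log2 fold change of -0.42 (SE 0.099) against BAL101553 and of 0.39 (SE 0.097) against control, as a description. Scaled to total library size, the first of these was -0.22, and among genes with at least 10 counts in every library it was -0.20. Dnmt3a differed from BAL101553 by 0.08 (SE 0.16, edgeR adjusted p = 0.657), and by -0.09 without BAL101553 library 2. It was higher than in control (0.74, SE 0.091, edgeR adjusted p = 6.46e-05).

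**Figure D3:**
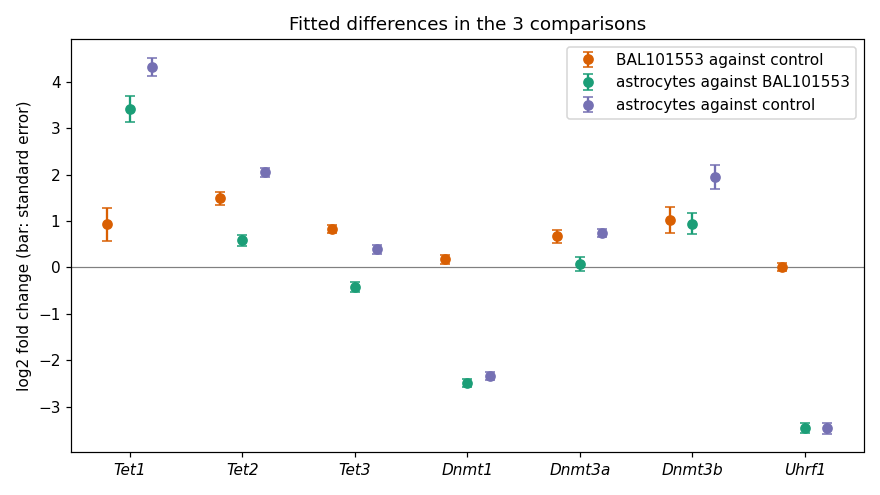
The y axis gives the fitted log2 fold change of each gene on the x axis in the 3 comparisons, with bars for the standard error. BAL101553 against control lies at or above 0 for every gene, from 0.01 for Uhrf1 to 1.48 for Tet2, while both astrocyte comparisons lie below -2 for Dnmt1 and Uhrf1 and above 3 for Tet1.

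The other genes of DNA methylation and its removal were taken from 7 lists by role, and 54 of their 72 genes passed the filter on low counts between BAL101553 and control. Of these, 12 were called higher (22.2%) and 1 lower (1.85%), against 8.64% and 6.09% over all genes, and their median log2 fold change was 0.15 against 0.02 over all genes. The lists were chosen with earlier results of these data known, so these shares are a description. Whether they follow the trend with transcript length given below was not tested. With the lists of S phase genes and nuclear-retained RNAs, which are not part of the pathway, 15 of 76 tested genes were called. The number called depended on the libraries used. It was 5 without control library 3, 6 without BAL101553 library 3 and 7 without control library 1. Without BAL101553 library 2 it was 14. These fits also have fewer libraries.

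Partners of the TET enzymes and suppliers of 2-oxoglutarate had 3 of 9 tested genes called higher and 0 lower, with a median log2 fold change of 0.34. Ogt, the enzyme that adds N-acetylglucosamine to proteins and binds TET enzymes, rose from 68.8 ± 3.12 to 133 ± 19.9 CPM (SD, n = 3), a log2 fold change of 0.96 (SE 0.12, edgeR adjusted p = 0.00728). Oga, which removes the sugar, rose by 0.34 (edgeR adjusted p = 0.0390). The isocitrate dehydrogenases were not called, with log2 fold changes of 0.22 for Idh1, -0.33 for Idh2 and -0.25 for Idh3a. Wt1, a DNA binding partner of TET2, was listed at 0 reads in every library.

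Among the genes listed for repair of oxidized methylcytosine, 2 of 13 tested were called higher and 0 lower, with a median of 0.27. These were the stress-induced Gadd45a, which went from 31.3 ± 3.89 to 56.2 ± 5.12 CPM (SD, n = 3; log2 fold change 0.85, SE 0.12, edgeR adjusted p = 0.00995), and Gadd45b (0.91, edgeR adjusted p = 0.0363). Tdg, the glycosylase that removes formylcytosine and carboxylcytosine, had 4 reads or fewer in every library and was not tested. How the counting treated reads shared with near-identical copies is not given in the sources used here, so its level is uncertain. Apex1, the endonuclease that acts next, had a log2 fold change of -0.16 (SE 0.12) and was not called. The tested glycosylases, Polb, Xrcc1 and Lig3 were not called either.

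The 8 methylcytosine readers had 0 calls in either direction by edgeR (DESeq2 called 3), with log2 fold changes between -0.37 for Zbtb33 and 0.49 for Uhrf2. Mbd2 had a log2 fold change of 0.23. At an unadjusted p under 0.05, 4 of the 8 passed, against 34.1% of all genes.

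Partners of maintenance methylation had 2 of 8 tested genes called higher and 0 lower, with a median of 0.02. They were Zfp57, a zinc finger protein that keeps methylation at imprinted regions (0.90, edgeR adjusted p = 0.0331), and Cdca7l, a relative of the HELLS partner Cdca7 (0.77, edgeR adjusted p = 0.0459). The genes that act at the fork were not called, with log2 fold changes of -0.05 for the sliding clamp Pcna, 0.03 for the remodeler Hells, -0.02 for Usp7, which deubiquitinates DNMT1, and 0.0043 for the ligase Lig1.

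Among partners of de novo methylation and the histone marks it reads, 3 of 9 tested genes were called higher and 0 lower, with a median of 0.23. Kmt2d and Kmt2a, which methylate histone H3 lysine 4, a mark that repels DNMT3A, rose by log2 fold changes of 1.05 (SE 0.13) and 0.93 (SE 0.12), both with an edgeR adjusted p of 0.00728. Kmt2d went from 104 ± 14.0 to 213 ± 22.9 CPM and Kmt2a from 102 ± 15.2 to 193 ± 7.97 CPM (SD, n = 3). Setdb1, which methylates histone H3 lysine 9, rose by 0.46 (edgeR adjusted p = 0.0230).

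The cycle that supplies S-adenosylmethionine, the methyl donor, moved in both directions, with 2 genes higher and 1 lower of 7 tested and a median of 0.04. Mtrr, which keeps methionine synthase working, rose by 0.52 (edgeR adjusted p = 0.0241). Ahcy, which hydrolyzes the inhibitory product S-adenosylhomocysteine, fell by 0.43 on the log2 scale (edgeR adjusted p = 0.0221), from 109 ± 9.06 to 80.4 ± 1.53 CPM (SD, n = 3). Mat2a, which makes S-adenosylmethionine, had a log2 fold change of 0.04.

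Germline genes that promoter methylation keeps silent in somatic cells stayed near the limit of detection. Of the 12 genes 0 passed the filter for the edgeR and DESeq2 tests, and none had more than 6 reads in any control or BAL101553 library. Their summed level was 0.0744 to 0.208 CPM in control and 0.0782 to 0.304 CPM after BAL101553. In the astrocyte libraries the sum was 1.80 to 2.31 CPM, and the 2 genes tested, Dazl and Ddx4, reached 0.458 ± 0.113 and 0.803 ± 0.248 CPM (SD, n = 3).

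Genes of S phase and dividing cells, which Dnmt1 and Uhrf1 often accompany, had 0 of 18 called between BAL101553 and control by edgeR (DESeq2 called 3), a median log2 fold change of -0.08 and a range of -0.39 to 0.51. At an unadjusted p under 0.05, 6 of the 18 passed, near the 34.1% of all genes. The highest was Mki67, at 121 ± 8.78 CPM in control and 172 ± 42.6 CPM after BAL101553 (SD, n = 3), with an edgeR adjusted p of 0.0813. The lowest was Rrm1, at 134 ± 3.93 CPM in control and 102 ± 15.2 CPM after BAL101553, with an edgeR adjusted p of 0.0611. Besides Rrm1, every BAL101553 library lay below every control library for E2f1 (-0.25), Ccne1 (-0.37), Mcm5 (-0.30), Mcm2 (-0.29) and Mcm6 (-0.27). Only Mki67 lay above control in this way. How many of all tested genes part in this way was not counted, so no drop or rise of the list is read from these genes.

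**Figure D4:**
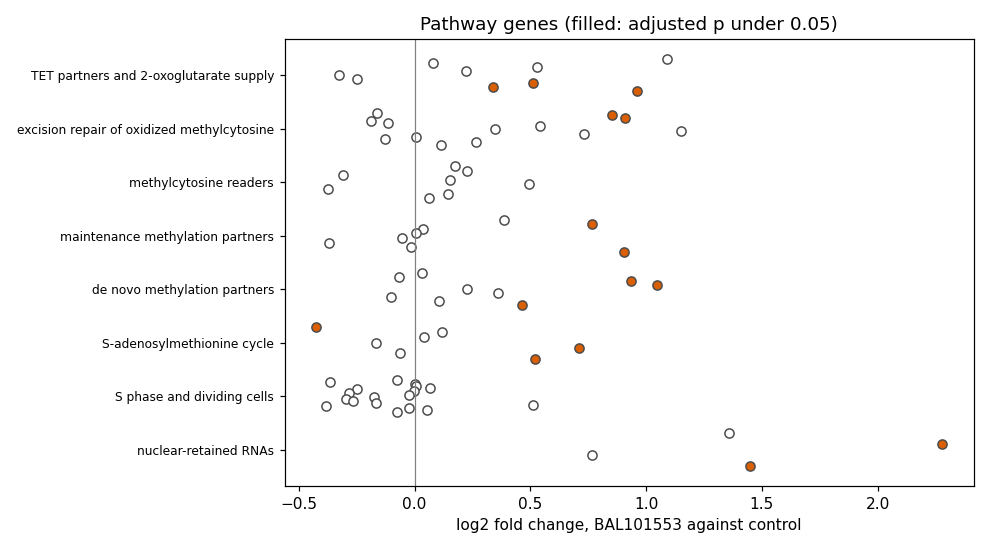
Each point is a tested gene of a role list (rows), placed by its log2 fold change of BAL101553 against control (x axis) and filled where the edgeR adjusted p is under 0.05. Filled points lie to the right of 0 in every list that has any, except for Ahcy in the S-adenosylmethionine cycle at -0.43, and neither the readers nor the S phase genes have a filled point.

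Against BAL101553, the astrocyte libraries had 16 of the 58 tested genes of these 7 lists higher and 35 lower (27.6% and 60.3%), against 46.3% and 38.9% over all genes, with a median log2 fold change of -0.61 against 0.18. All 18 S phase genes and all 8 tested maintenance partners were lower, with medians of -3.58 and -2.03. Hells fell by 4.47 on the log2 scale (edgeR adjusted p = 2.46e-08), from 59.7 ± 3.83 to 2.75 ± 0.103 CPM (SD, n = 3), and Mki67 lay between 9.96 and 12.02 CPM. Partners of de novo methylation had 8 of 9 lower, led by Nsd2, which methylates histone H3 lysine 36 (-2.41, edgeR adjusted p = 1.33e-07). Against control 6 of these 9 were lower and 2 higher. The 2 were Kmt2a and Kmt2d, at -0.48 and -0.73 against BAL101553 but 0.44 and 0.30 against control.

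The TET partners went both ways in the astrocyte libraries, with 4 of 9 higher and 3 lower. Ogt was higher, at 311 ± 14.9 CPM (SD, n = 3; log2 fold change 1.19, edgeR adjusted p = 1.98e-05), as were Cxxc4, a CXXC protein that binds TET2 (2.92), and D2hgdh (1.08), whereas Cxxc5 (-0.61) was lower. In excision repair 4 of 13 were higher, among them the glycosylases Neil1 (1.23) and Neil2 (1.45), and 7 were lower, among them Gadd45a (-3.01) and Apex1 (-2.54). Among the readers, Zbtb4 was higher (0.77) and 5 of 8 were lower, with Uhrf2 at -1.68. In the S-adenosylmethionine cycle, Ahcyl1 (1.46) and Mat2a (0.99) were higher and Ahcy (-1.75) and Mtrr (-1.46) lower.

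Transcript length and some nuclear RNAs moved with the difference between BAL101553 and control. Over genes with merged exons up to 2 kb the median log2 fold change was -0.16 and 5.08% were called higher, whereas over the 732 genes above 12 kb it was 0.24 and 22.8% were called higher. Tet1, Tet2, Tet3 and Dnmt3a, with 15457, 16870, 16695 and 16642 bases, lie in the last bin. Dnmt1, Dnmt3b and Uhrf1, with 7377, 5106 and 4259 bases, do not. With a smooth trend on length and GC content taken out, the log2 fold change was 1.30 for Tet2, 0.63 for Tet3, 0.50 for Dnmt3a, 0.76 for Tet1, 0.10 for Dnmt1 and -0.01 for Uhrf1, so the values of Tet2 and Tet3 were smaller by 0.18 and 0.20 and that of Dnmt3b by 0.019.

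Of the 4 tested RNAs that are kept in the nucleus, 2 were called higher after BAL101553, with a median log2 fold change of 1.40. Malat1 went from 48.3 ± 6.77 to 233 ± 51.9 CPM (SD, n = 3; log2 fold change 2.28, edgeR adjusted p = 0.00430) and Neat1 from 25.5 ± 5.24 to 69.1 ± 17.8 CPM (1.45, edgeR adjusted p = 0.00995). Kcnq1ot1 (1.36, edgeR adjusted p = 0.0507) and Meg3 (0.77, edgeR adjusted p = 0.528) did not pass, and Snhg11 was not tested. The 5 RNAs of this list summed to 63.7 to 86.7 CPM in control, 260 to 386 CPM after BAL101553 and 1266 to 1490 CPM in astrocytes. The part of RNA handling in the Tet2 and Tet3 values was not tested.

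**Figure D5:**
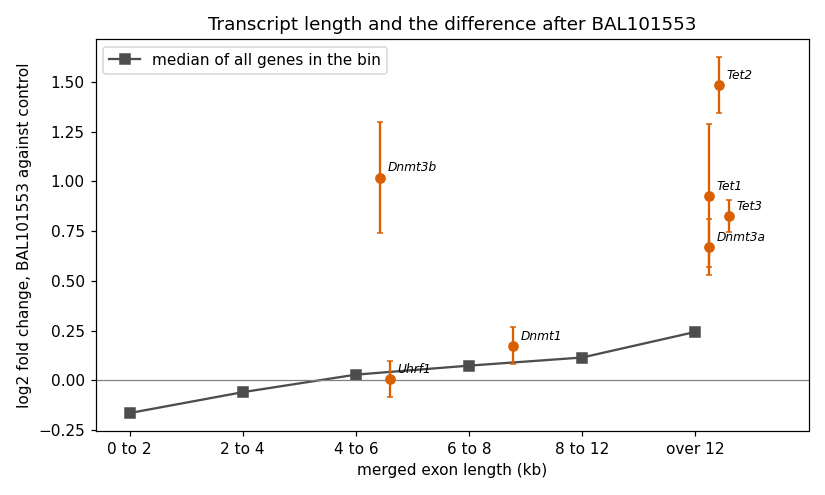
The x axis bins genes by merged exon length in kb and the y axis gives the log2 fold change of BAL101553 against control, as the median of all genes in a bin (squares, joined) and as the value and standard error of each member (points, set side by side within their bin for legibility). The median climbs from -0.16 to 0.24 with length, Tet2, Tet3, Tet1 and Dnmt3a lie above the median of the longest bin, and Dnmt1 and Uhrf1 lie close to the medians of theirs.

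Over the 6 control and BAL101553 libraries, Pearson's r of log2 CPM between Tet2 and Tet3 was 0.974, between Tet2 and Dnmt3b 0.964 and between Tet2 and Uhrf1 0.00352, given as a description since these libraries share the step between the groups. Among 10471 genes with a mean of at least 100 counts, Efna5, Col5a2 and Eno2 were most like Tet2, with r of 0.998, 0.998 and 0.997. Those most like Tet3 were Ino80 (0.999), Ccnl2 (0.998) and Ptprs (0.997). For Dnmt1 they were Arid4b (0.996), Mrgprf (0.992) and Lamc1 (0.992), and for Uhrf1 Osbpl11 (0.988), Msh6 (0.983) and Nck1 (0.981). With r above 0.95, 254 genes followed Tet2, 317 Tet3, 69 Dnmt1 and 11 Uhrf1. Tet2 and Tet3 were chosen for their step between these same libraries, which many other genes share. Their counts therefore follow in part from that choice and are a description.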

How the data were processed

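RNA from 9 libraries, 3 labelled control, 3 BAL101553 and 3 astrocytes, was sequenced by the authors. Per the labels and the study's methods, which describe fewer samples per group under another deposit, 50-base stranded reads were mapped with TopHat (mm10), summarized with PicardTools and counted with HTSeq (0.6.1 in the submitters' processing notes) and featureCounts; which counter, annotation and strand setting made the table is not given in the sources used here. The values deposited are raw counts, listed by gene symbol with no scaling and each replicate in its own column. All 9 count columns belong to a labelled sample. Names of 27 rows read as dates, with at most 0.440% of a library's counts; they stayed in as deposited.

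Groups were compared in R 4.3.3 with edgeR 4.0.16 (TMM, filterByExpr on the 2 groups compared, quasi-likelihood test, two-sided, Benjamini-Hochberg over all genes tested, threshold 0.05). Levels are CPM scaled by TMM over all 9 libraries, and fold changes come from each fit of 2 groups. Log2 CPM for correlations used a prior count of 2. Lengths and positions are from GENCODE vM21 (GRCm38), which matched 23358 of 24419 gene names by symbol and 669 by an older symbol; Oga and Nsd2 are listed under older symbols. Promoters are from the RefSeq table, in which all 7 genes were found. The members and lists were chosen with earlier results of these data known. Named are all members, up to 3 genes per list and direction with the lowest adjusted p in the comparisons of BAL101553 with control and of astrocytes with BAL101553, the 3 genes most like each of Tet2, Tet3, Dnmt1 and Uhrf1, and 6 label checks; other list genes named were chosen after their values were seen. Some list genes are counted but not reported here by name. On simulated counts for BAL101553 against control with 200 of 12633 genes changed 2-fold, 140 (70%) were recovered with 11 false calls. The simulation changed a smaller share of genes than the 14.7% called in the data, so its figures may not hold for this comparison. Replicate numbers do not say whether libraries came from separate mice, so p-values measure only the spread between these libraries. Between libraries of a group the chi-square per degree of freedom over genes was 14.9 to 68.4, so none was a repeat of another. Totals of 22919523 to 34013875 counts leave a count of 3 reads or fewer at the limit of detection. Alternatives were other scalings, filters, DESeq2 1.42.0, 1 model of all libraries, a replicate block and leaving out libraries.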

Additional observations from a re-analysis of the deposited data

How the results depend on the processing

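Between BAL101553 and control, the 1860 genes called became 2832 with DESeq2 and 3022 with all 9 libraries in 1 model, 193 (without control library 3) to 1712 when a library was left out, and 1 with control 1 and 2 against BAL101553 2 and 3. Without control library 1 there were 458, without BAL101553 library 3 668 and without BAL101553 library 1 1133. Scaled to total library size, 1882 were called with 77.4% of them higher, against 58.7%. Members called went from 4 to between 2 and 3 when a library was left out and to 0 with 2 libraries a group, which describes the values the choice rested on. The 15 genes called over all lists, S phase and nuclear RNAs included, became 25 with DESeq2, 24 with all 9 libraries, 5 to 14 with a library left out and 0 with 2 libraries a group. Apart from fewer samples, the cause was not tested. The log2 fold change of Tet2 ran from 1.30 to 1.58 and that of Tet3 from 0.63 to 0.91, and of Uhrf1 from -0.05 to 0.09.

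Total library size moved the median log2 fold change of all genes from 0.18 to 0.39 for astrocytes against BAL101553 and from 0.25 to 0.56 against control. In these comparisons the genes called ranged from 9773 to 14200 and from 9985 to 14622, the members called from 5 to 6 and at 7 throughout, and the genes called over all lists against BAL101553 from 64 to 76.

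With the longest transcript in place of merged exons, chosen after seeing the data, the TET shares in control were 1.59% for Tet1, 19.5% for Tet2 and 78.9% for Tet3, the share of Tet2 after BAL101553 was 27.6%, and those of Tet1 and Tet2 in astrocytes were 14.7% and 37.5%. The group order of each share did not change.

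With the replicate number as a block, 1371 genes were called between BAL101553 and control, 12815 and 13357 in the astrocyte comparisons, and the members called were 3, 6 and 7. Deviations of libraries with the same number correlated at 0.114, -0.012 and 0.150 between BAL101553 and control, and not every library correlated best with its own number, so the numbers do not show a pairing. At 16 to 36 reads in control, Tet1 and Dnmt3b are limited by depth.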
